A study of Rattus norvegicus with 72 samples.

Results

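Des, Vim, Pcolce, Mgp and Lgals1 are genes of hepatic stellate cells and of the extracellular matrix, and their RNA was followed in rat liver after acetaminophen, an analgesic that injures the liver at high dose. They were taken as the probes that the platform annotation gives to these symbols, which are 6 of 20500 probes and 5 of 9653 genes with a symbol. The 5 symbols were chosen by their treated-over-pool ratios in these rats, so their values are given as a description, without p-values. Liver RNA of 36 rats was compared with control RNA on 72 two-colour Agilent arrays. The rats had received acetaminophen in methyl cellulose by oral gavage at 50, 150, 1500 or 2000 mg/kg and were sampled at 6, 24 or 48 h, with 3 rats in each of 12 groups. RNA of the left liver lobe of each rat was hybridised with pooled RNA of vehicle-treated rats of its dose and time, on 2 arrays with the dyes exchanged. The titles write the unit as mg/kg for 150 mg/kg at 6 and 24 h and as mg elsewhere. They name a mock control at 150 mg/kg and 6 h, and mock and sham controls on the paired arrays at 150 mg/kg and 24 h. Strain, sex and age of the rats are not in the labels used here. Values are log2 ratios of a treated rat over its pool, averaged over both arrays, and a value above 0 stands for a higher RNA content in the treated animal. The ratios were read as red over green, as the array software usually writes them. The labels do not state this, and every sign below would turn if it were the opposite.

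Stellate cells lie between hepatocytes and the sinusoidal endothelium and store vitamin A. After liver injury they can turn into contractile cells that resemble myofibroblasts and secrete collagen, and desmin is a marker used for them in the rat. Desmin (Des) and vimentin (Vim) are intermediate filament proteins of mesenchymal cells. Pcolce encodes the enhancer of procollagen C-proteinase, which speeds removal of the C-terminal propeptide of fibrillar collagens. Mgp encodes matrix Gla protein, a secreted inhibitor of calcification, and Lgals1 encodes galectin-1, a lectin that binds beta-galactosides. None of these genes belongs to stellate cells alone, and vimentin and galectin-1 are also made by leukocytes and endothelial cells. In whole liver, fewer cells of a type and less RNA per cell cannot be told apart. The arrays give ratios and no levels, so the presence of stellate cells could not be checked from the level of their markers.

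For Des, Vim, Pcolce and Lgals1 the clearest pattern was at 48 h. Averaged over the 6 rats given 1500 or 2000 mg/kg, Lgals1 was 4.10-fold above its pools, Des 3.67-fold, Pcolce 2.84-fold, Vim 2.42-fold and Mgp 1.72-fold. The high-dose range of Mgp overlapped the low-dose rats at that time. The log2 ratio of Des differed between dyes, at 3.01 with the treated rat in Cy5 and 0.74 with it in Cy3. At 6 h only Mgp of the 5 stood above all lower-dose rats, at 1.77-fold. At 24 h each of the 5 overlapped between high and low doses. The share of all features without such overlap was not counted, so statements on overlap here and below are a description.

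**Figure D1:**
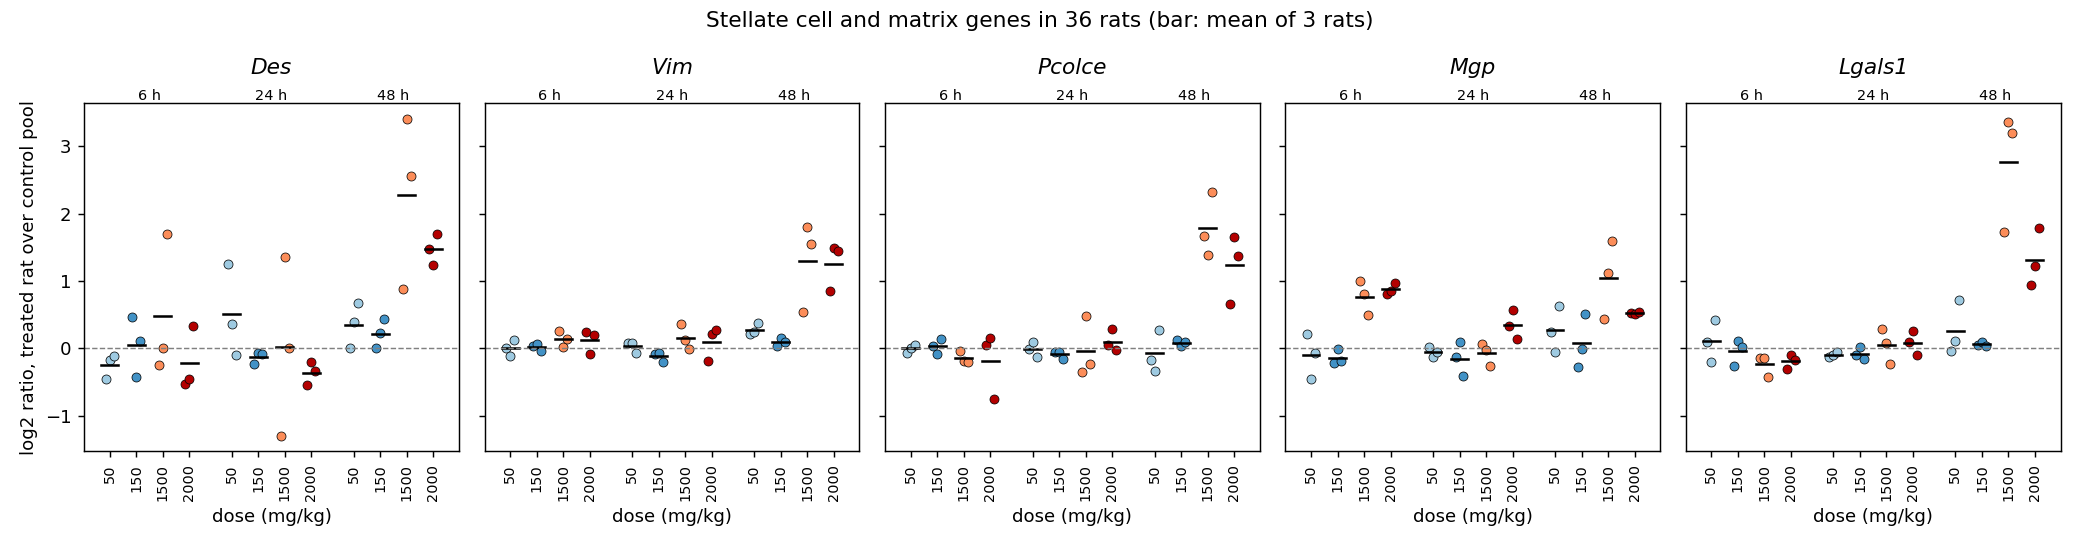
Log2 ratio of each treated rat over its control pool (vertical axis) by dose in mg/kg (horizontal axis) at 6, 24 and 48 h, with 1 point for each of 36 rats and a bar for the mean of 3 rats. The highest point of each gene is a 1500 mg/kg rat at 48 h, and Mgp is also above 0 in all 6 rats given 1500 or 2000 mg/kg at 6 h.

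Promoter sequences of these genes are shown as a description. The genes were chosen by their ratios in these rats, and shared regulation was not tested. A promoter of 300 bases (250 before and 50 after the RefSeq gene start, build GRCr8) was matched for 3 of the 5 genes. That of Des lies at chr9:84299376-84299675, that of Vim at chr17:81577011-81577310 and that of Pcolce at chr12:24720722-24721021, all on the plus strand. The sequences are given 5′ to 3′, with matches to 5 searched motifs in capitals.
Des: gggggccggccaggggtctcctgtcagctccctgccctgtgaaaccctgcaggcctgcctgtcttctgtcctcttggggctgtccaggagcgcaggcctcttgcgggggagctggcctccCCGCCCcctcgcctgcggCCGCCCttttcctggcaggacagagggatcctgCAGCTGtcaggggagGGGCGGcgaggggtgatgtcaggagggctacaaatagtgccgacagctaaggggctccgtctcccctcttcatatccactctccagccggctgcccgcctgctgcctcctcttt
Vim: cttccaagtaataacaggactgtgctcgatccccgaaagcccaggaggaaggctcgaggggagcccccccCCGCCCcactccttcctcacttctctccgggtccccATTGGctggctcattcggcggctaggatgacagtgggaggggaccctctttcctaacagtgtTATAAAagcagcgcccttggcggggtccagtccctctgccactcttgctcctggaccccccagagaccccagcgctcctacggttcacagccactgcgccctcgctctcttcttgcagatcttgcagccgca
Pcolce: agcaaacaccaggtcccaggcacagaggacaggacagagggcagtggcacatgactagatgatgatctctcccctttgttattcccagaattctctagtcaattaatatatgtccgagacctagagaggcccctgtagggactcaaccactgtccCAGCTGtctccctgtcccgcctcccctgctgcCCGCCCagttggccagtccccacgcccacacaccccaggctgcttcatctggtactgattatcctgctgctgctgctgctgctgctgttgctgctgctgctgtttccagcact
Both strands were searched for the GC box GGGCGG, the E-box CAGCTG, the TATA box TATAAA, the CCAAT box and the AP-1 motif TGANTCA, and no 2 matches overlapped. The GC box was matched 3 times in Des and once each in Vim and Pcolce, and 33.1% of 33469 rat promoters of this length hold it. The E-box was matched once in Des and once in Pcolce, against 15.1% of promoters. Vim alone of the 3 held TATAAA, which 14.2% of promoters hold, and CCAAT, which 37.5% hold. TGANTCA, found in 7.33% of promoters, is not among the letters of these 3 windows. The matches describe the sequence and were not read as binding sites.

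Desmin was the filament gene with the largest single value. At 48 h Des was 1.48, 1.23 and 1.70 in the 2000 mg/kg rats (3117, 3118 and 3119) and 0.89, 3.40 and 2.55 in the 1500 mg/kg rats (3006, 3007 and 3008). The 6 rats given 50 or 150 mg/kg lay between 0 and 0.67. On the mean of both arrays every high-dose rat was above every low-dose rat, and rats 3007 and 3008 stood well above the others. The means were 1.88 ± 0.94 at high dose and 0.29 ± 0.26 at low dose (SD, n = 6 rats each). The Des measurement was the weakest of the 5, since its probe read exactly 0 on 23 of 72 arrays (31.9%), while 2.68% of all values were exactly 0. Its paired arrays also differed in size. In the high-dose rats at 48 h the ratio averaged 3.01 with the treated rat in Cy5 and 0.74 with it in Cy3, and the difference was positive in 6 of 6 rats (median 2.17). The ratio was above 0 on both arrays in 3 of these 6 rats, and 2 rats had an exact 0. In rat 3117 the arrays read 3.05 and -0.09. Of the low-dose rats at 48 h, rats 3149 and 3057 read exactly 0 on both arrays. Rats 3150, 3058 and 3059 read exactly 0 with the treated rat in Cy3. On the Cy3 arrays alone the dose groups overlapped, with the low-dose rat 3151 (0.42) above rats 3117, 3118 and 3006. At 6 h Des ranged from -0.53 to 1.70 at high dose and from -0.45 to 0.47 at low dose. At 24 h it ranged from -1.29 to 1.36 at high dose and from -0.23 to 1.25 at low dose. The groups overlapped at both times.

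Vimentin moved less, with a narrower spread. At 48 h Vim was 0.84, 1.49 and 1.44 in the 2000 mg/kg rats and 0.55, 1.80 and 1.54 in the 1500 mg/kg rats, in the same order of rats. The low-dose rats lay between 0.04 and 0.37, below every high-dose rat. The means were 1.28 ± 0.48 at high dose and 0.19 ± 0.12 at low dose (SD, n = 6 each). Between the high doses the mean was 1.26 ± 0.36 in 2000 mg/kg rats and 1.30 ± 0.66 in 1500 mg/kg rats (SD, n = 3 each), with overlapping ranges. Both arrays were above 0 in 6 of 6 high-dose rats, at mean 1.26 with the treated rat in Cy5 and 1.29 with it in Cy3. At 6 and 24 h all 24 rats lay between -0.20 and 0.36.

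**Figure D2:**
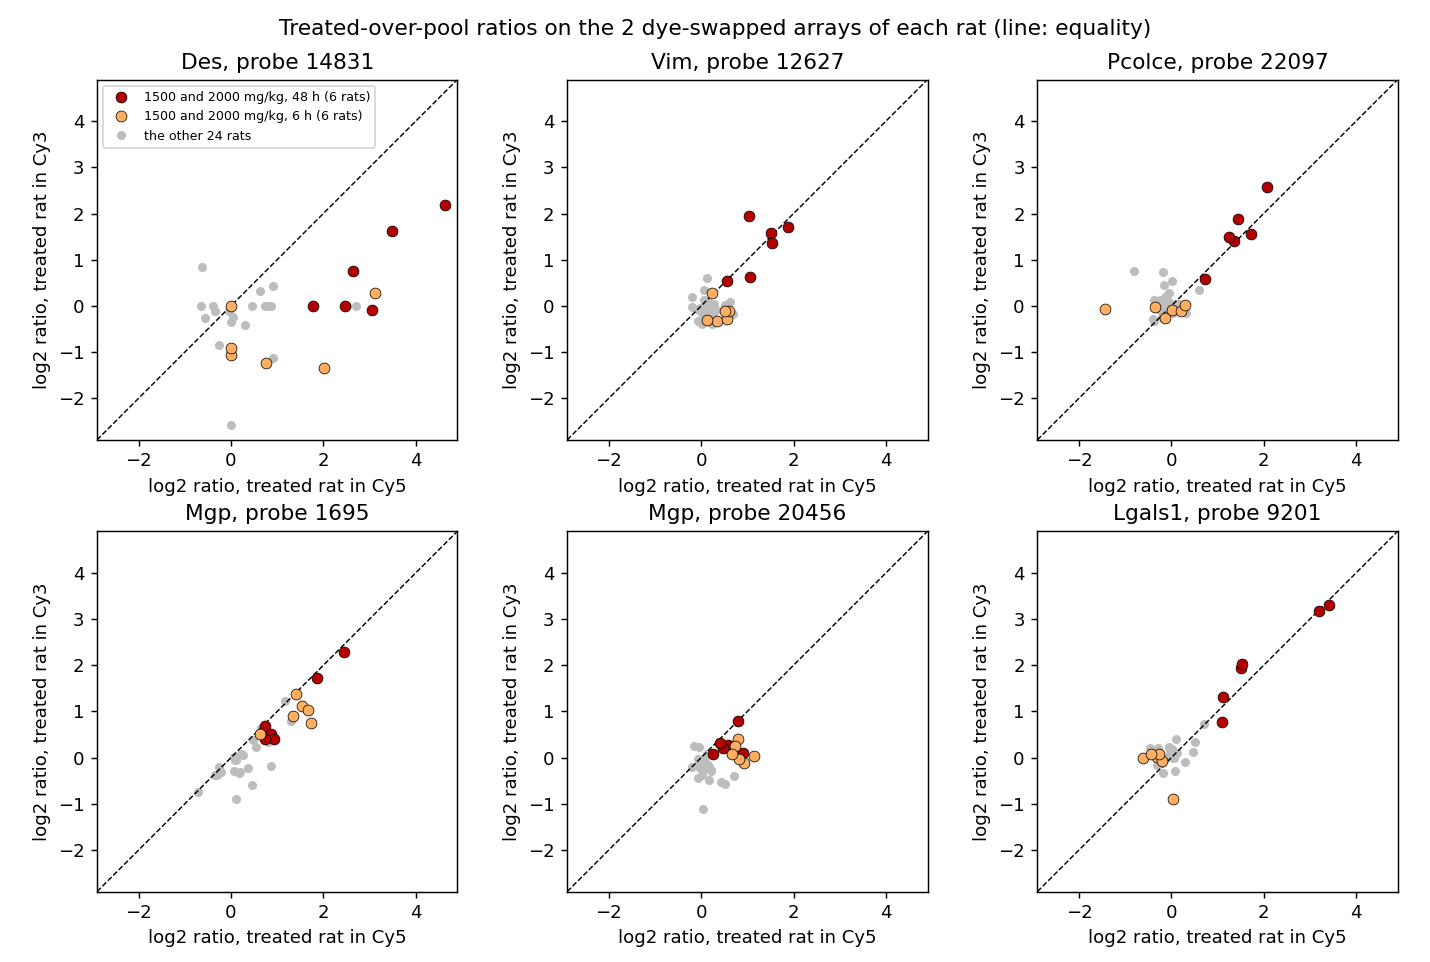
Log2 ratio of each of 36 rats on the array with the treated rat in Cy5 (horizontal axis) against that with it in Cy3 (vertical axis), by probe, with a line of equality. The high-dose rats at 48 h (dark red) are within 0.51 of the line for Pcolce and Lgals1. For Vim rat 3118 stands off it (1.03 in Cy5 and 1.94 in Cy3), and for Des the high-dose points lie well below it, where the ratio averaged 3.01 in Cy5 and 0.74 in Cy3.

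Pcolce was near 0 in the low-dose rats at 48 h. It was 0.66, 1.65 and 1.38 in the 2000 mg/kg rats (3117, 3118 and 3119) and 1.67, 1.38 and 2.31 in the 1500 mg/kg rats (3006, 3007 and 3008). The low-dose rats lay between -0.33 and 0.28, so that the groups did not overlap. The means were 1.51 ± 0.54 at high dose and 0.01 ± 0.22 at low dose (SD, n = 6 each). Unlike the other 4 genes, Pcolce was not lowest in rat 3006 among the 1500 mg/kg rats. Both arrays were above 0 in 6 of 6 high-dose rats. At 6 h the gene ranged from -0.76 to 0.16 at high dose and from -0.08 to 0.14 at low dose. At 24 h it ranged from -0.35 to 0.48 at high dose and from -0.15 to 0.10 at low dose.

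Matrix Gla protein stood above its pools at high dose already at 6 h. At 6 h Mgp was 0.81, 0.85 and 0.97 in the 2000 mg/kg rats and 1.00, 0.81 and 0.49 in the 1500 mg/kg rats. The low-dose rats lay between -0.45 and 0.21, and the groups did not overlap. In the high-dose rats at 6 h probe 1695 averaged 1.39 with the treated rat in Cy5 and 0.95 with it in Cy3. Probe 20456 averaged 0.85 in Cy5 and 0.10 in Cy3. Both arrays were above 0 in 6 of 6 rats on probe 1695 and in 4 of 6 on probe 20456. On the Cy3 arrays of probe 20456 alone the dose groups overlapped. At 24 h the 2000 mg/kg rats were at 0.33, 0.57 and 0.13, above the 1500 mg/kg rats at 0.06, -0.02 and -0.26. On probe 20456 alone these 2 groups overlapped, at 0.10, 0.10 and -0.12 against -0.03, -0.05 and -0.26. At 48 h Mgp was 0.52, 0.51 and 0.54 at 2000 mg/kg and 0.43, 1.11 and 1.59 at 1500 mg/kg. The low-dose rats lay between -0.27 and 0.63 and overlapped them, with rat 3151 (50 mg/kg) and rat 3059 (150 mg/kg, 0.51) inside the high-dose range. The mean was 0.78 ± 0.47 at high dose and 0.18 ± 0.35 at low dose (SD, n = 6 each). Mgp has 2 probes, whose dose differences were above 0 at all 3 times but of unlike size. Single ratios did not always share a sign. Rat 3107 (2000 mg/kg, 24 h) read 0.39 on probe 1695 and -0.12 on probe 20456. The mean of the 1500 mg/kg rats at 24 h (-0.07) turned sign on probe 1695 alone. For the 24 h rats the dose difference was 0.58 with one probe and only 0.0037 with the other. The difference between high and low dose was 1.26 on one and 0.62 on the other at 6 h, and 0.84 and 0.38 at 48 h. The rat 3020 value rests on 1 of the probes, since an array value is missing on the other.

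Galectin-1 had the highest group mean of the 5. At 48 h Lgals1 was 0.94, 1.22 and 1.78 in the 2000 mg/kg rats (3117, 3118 and 3119) and 1.73, 3.35 and 3.19 in the 1500 mg/kg rats (3006, 3007 and 3008). The low-dose rats lay between -0.04 and 0.72, the highest being rat 3151, and did not overlap the high-dose rats. The means were 2.04 ± 1.01 at high dose and 0.16 ± 0.28 at low dose (SD, n = 6 each). The ratio averaged 1.98 with the treated rat in Cy5 and 2.09 with it in Cy3. The 2000 mg/kg rats averaged 1.31 ± 0.43 and the 1500 mg/kg rats 2.76 ± 0.90 (SD, n = 3 each). The ranges overlapped slightly, with rat 3119 (2000 mg/kg) at 1.78 and rat 3006 (1500 mg/kg) at 1.73. At 6 h the 6 high-dose rats were all below 0, between -0.42 and -0.09, while the low-dose rats lay between -0.25 and 0.42. At 24 h the high-dose rats ranged from -0.23 to 0.29, and the low-dose rats from -0.16 to 0.02.

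Across the 12 groups, 1500 mg/kg at 48 h had the highest mean for each of the 5 genes. For Des, Vim, Pcolce and Lgals1 2000 mg/kg at 48 h came next, and the ranges of these neighbouring groups overlapped. For Mgp the next were 2000 mg/kg (0.88) and 1500 mg/kg (0.77) at 6 h, then 2000 mg/kg at 48 h (0.52). The other group means of Lgals1, Vim and Pcolce were at most 0.28 from 0. The rats of a group kept a partly common order at 48 h. Rat 3006 was the lowest of the 1500 mg/kg rats for 4 of 5 genes, and rat 3117 the lowest of the 2000 mg/kg rats for 3 of 5. Of the low-dose rats at 48 h, rat 3151 (50 mg/kg) was above 0 for all 5 genes, at 0.28 to 0.72.

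A feature (a gene, or a probe without a symbol) was called where limma gave an adjusted p below 0.05 (Benjamini-Hochberg) and the change reached 1.5-fold. Because the rule for these genes used the same ratios, the counts of members called are given only beside the background. Between high and low doses all 5 were called higher at 48 h, where 8.26% of 17299 features were called higher. The Mgp difference of 0.61 was just above 1.5-fold, and its call ended with arrays scaled to equal spread (0.39) and without rat 3008 (0.47), 3057 (0.52) or 3150 (0.53). At 6 h 1 of 5, Mgp, was called higher, with 4.67% of all features. At 24 h 0 of 5 were called, with 9.93% of features called in either direction. Between 48 and 24 h all 5 were called higher at the high doses (5.72% of features, 9.08% in either direction), and between 24 and 6 h 1, Mgp, was called lower (4.37% of features, 10.1% in either direction). The Mgp difference between 48 and 24 h was 0.65, and its call ended with scaled arrays (0.51) and without rat 3008 (0.51). Between 2000 and 1500 mg/kg at 48 h 1 gene, Lgals1, was called lower, as were 3.32% of features (5.4% in either direction), and at 24 h 0 of 5 were called (5.19%). At 48 h Pcolce was also called lower without rat 3118 (-0.77), and Mgp without rat 3006 (-0.83). Against the pools at 48 h 4 genes were called higher at 2000 mg/kg (12.8% of features), all but Mgp, and 5 at 1500 mg/kg (13.3%).

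The genes with the most similar pattern were found by the root mean square difference of the 12 group means, over 9601 genes with a symbol. Nearest to Des were Slc25a4 (0.26), Anxa1 (0.26) and Ptn (0.27), where the root mean square of Des itself was 0.83. Slc25a4 was 1.51 at 2000 mg/kg and 2.23 at 1500 mg/kg at 48 h. Nearest to Vim were the kinase gene Grk5 (0.13), Tk1 (0.13), the thymidine kinase of dividing cells, and Birc5 (0.16), survivin of mitosis. Birc5 (0.15) was also nearest to Pcolce, followed by Cd53 (0.17), a leukocyte tetraspanin, and Myh10 (0.17), a non-muscle myosin. Crip1 (0.24), Cd53 (0.25) and Myof (0.27) were nearest to Lgals1. For Mgp, whose own root mean square was 0.50, the nearest were Efcab14 (0.20), Slc31a2 (0.21) and Vcpip1 (0.21). Among the 5 genes Vim and Pcolce were the closest pair (0.22), and Mgp and Lgals1 the farthest apart (0.70).

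Other genes of the matrix and of stellate cells were taken in 9 lists. The lists, like the members, were chosen with earlier results of these data known. High dose (the average of the 1500 and 2000 mg/kg means) was set against low dose (that of 50 and 150 mg/kg), and 8.26% of all features were called higher and 4.09% lower. Of 10 tested collagen genes 2 were called higher and 0 lower, with a list median of -0.07 against -0.03 for all features. Col1a2, a chain of type I collagen, was 1.11 ± 0.94 at high dose and 0.05 ± 0.27 at low dose (SD, n = 6 each), a difference of 1.06 ± 0.19 (SE, limma adjusted p = 6.02e-05). Its rats were at 0.23, 0.54 and 0.55 after 2000 mg/kg, against 0.72, 2.38 and 2.22 after 1500 mg/kg. The groups overlapped, with the low-dose rat 3151 (0.58) above all 3 rats of 2000 mg/kg. The 2000 mg/kg mean was lower by log2 -1.33 ± 0.26 (SE, limma adjusted p = 0.00209). Col3a1, the chain of type III collagen, was below its pools in all 6 high-dose rats, between -0.55 and -0.24, against -0.15 to -0.04 at low dose. Its difference of -0.33 ± 0.06 (SE, limma adjusted p = 5.04e-05) did not reach 1.5-fold. Col5a3 was called higher (0.99 ± 0.35), and without the low-dose rat 3149 its difference was 0.48 and the call ended. The call also ended without rat 3057, 3007 or 3119 (0.89 to 0.93). Col1a1, Acta2 and Timp1 were not tested here.

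Of 16 tested genes of collagen processing 4 were called higher and 0 lower, with a median of 0.35. P4hb, protein disulfide isomerase and the beta subunit of prolyl 4-hydroxylase, was 0.89 to 1.21 in the 2000 mg/kg rats and 0.96 to 1.36 in the 1500 mg/kg rats at 48 h. The low-dose rats lay between -0.15 and 0.11, and the difference was 1.07 ± 0.12 (SE, limma adjusted p = 4.17e-08). Adamts2, which removes the N-terminal propeptide of procollagens, differed by 1.13 ± 0.21 (SE, limma adjusted p = 8.36e-05). Loxl1, a lysyl oxidase that crosslinks elastin, differed by 0.72 ± 0.15, and Fkbp10, outside the naming rule, was the other gene called. Of 28 matrix glycoproteins and proteoglycans 2 were called higher, Sparc (0.68 ± 0.13), a collagen-binding protein of remodelling matrix, and Efemp2 (0.67 ± 0.07). One, the SPARC-like gene Sparcl1 (-0.74 ± 0.14), was called lower, and without rat 3151 it was -0.56 and the call ended. With arrays scaled to equal spread the differences of Sparc (0.48), Efemp2 (0.52) and Loxl1 (0.57) fell below 1.5-fold.

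**Figure D3:**
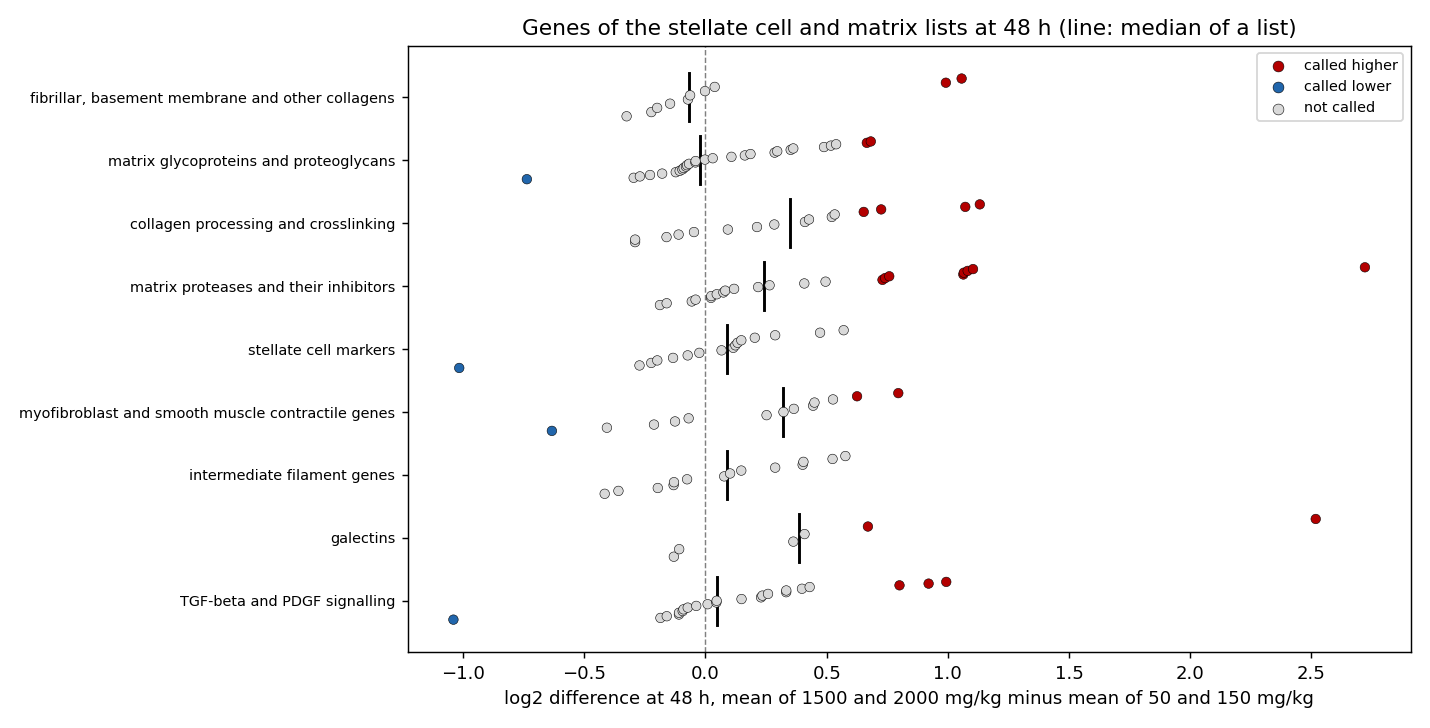
Log2 difference at 48 h between high dose (1500 and 2000 mg/kg) and low dose (50 and 150 mg/kg, horizontal axis) for each tested gene of 9 lists (rows), with a line at the list median. Mmp12 (2.72) and Lgals3 (2.52) are the 2 points farthest to the right, and collagens and stellate cell markers centre near 0.

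Of 22 matrix proteases and inhibitors 8 were called higher and 0 lower at 48 h, with a median of 0.24. Mmp12, the macrophage elastase, was 2.60 ± 1.23 at high dose and -0.12 ± 0.46 at low dose (SD, n = 6 each), a difference of 2.72 ± 0.33 (SE, limma adjusted p = 2.43e-07). Mmp23 and Mmp16, 2 membrane-bound metalloproteinases, differed by 1.10 ± 0.13 and 1.08 ± 0.18. The other 5, named to complete the count, were Mmp3, Mmp24, Timp2, Adamts1 and Adamts9. Of the galectin list 2 of 6 were called higher. Lgals3, galectin-3, was 2.51 ± 0.93 at high dose and -0.01 ± 0.15 at low dose (SD, n = 6 each), a difference of 2.52 ± 0.25 (SE, limma adjusted p = 6.18e-09). Lgals3bp, a ligand of galectin-3, differed by 0.67 ± 0.12, and set against the pools in place of the low doses it was 0.47 and not called. Of 14 intermediate filament genes other than Des and Vim 0 were called, with a median of 0.09. The limma fit had 8 of them at an unadjusted p below 0.05. Lmnb1, Plec, Nefh and Lmna (higher) and Krt20 and Sync (lower), outside the naming rule, had an adjusted p below 0.05. They fell short of 1.5-fold.

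Of 16 tested stellate cell markers 0 were called higher and 1 lower at 48 h, with a median of 0.09. The gene called lower was Cxcl12, a chemokine, at -0.83 ± 0.40 in high-dose and 0.19 ± 0.29 in low-dose rats (SD, n = 6 each), with no overlap. It was also called lower at 6 h (-1.64 ± 0.20) and at 24 h (-1.66 ± 0.20, SE). Lrat, the retinol esterifying enzyme of quiescent stellate cells, was 0.47 ± 0.36 at high dose and 0.18 ± 0.54 at low dose at 48 h, a difference of 0.29 ± 0.22 (SE, limma adjusted p = 0.328). At 24 h Lrat was called lower (-0.75 ± 0.22, SE, limma adjusted p = 0.0108), which ended against 150 mg/kg alone (-0.48) and with scaled arrays (-0.50). Pdgfrb, the receptor of stellate cells for platelet-derived growth factor, was 0.54 ± 0.35 at high dose and 0.41 ± 0.15 at low dose at 48 h, a difference of 0.13 ± 0.14 (limma adjusted p = 0.496). Gfap, a filament gene of stellate cells, differed by -0.22 ± 0.07 (limma adjusted p = 0.00871), short of 1.5-fold. Rgs5 (0.57 ± 0.18, limma adjusted p = 0.0147) and Nes (0.47 ± 0.17, limma adjusted p = 0.0241), outside the naming rule, were higher. They also fell short of 1.5-fold. Between 48 and 24 h at the high doses 3 of the 16 stellate markers were called higher, beside 5.72% of all features. They were Lrat (1.08 ± 0.22), Pdgfrb (0.88 ± 0.14) and Cxcl12 (0.81 ± 0.20, SE). In the low-dose rats Pdgfrb lay between -0.18 and 0.34 at 24 h and between 0.24 and 0.67 at 48 h. Pools differ between the times.

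**Figure D4:**
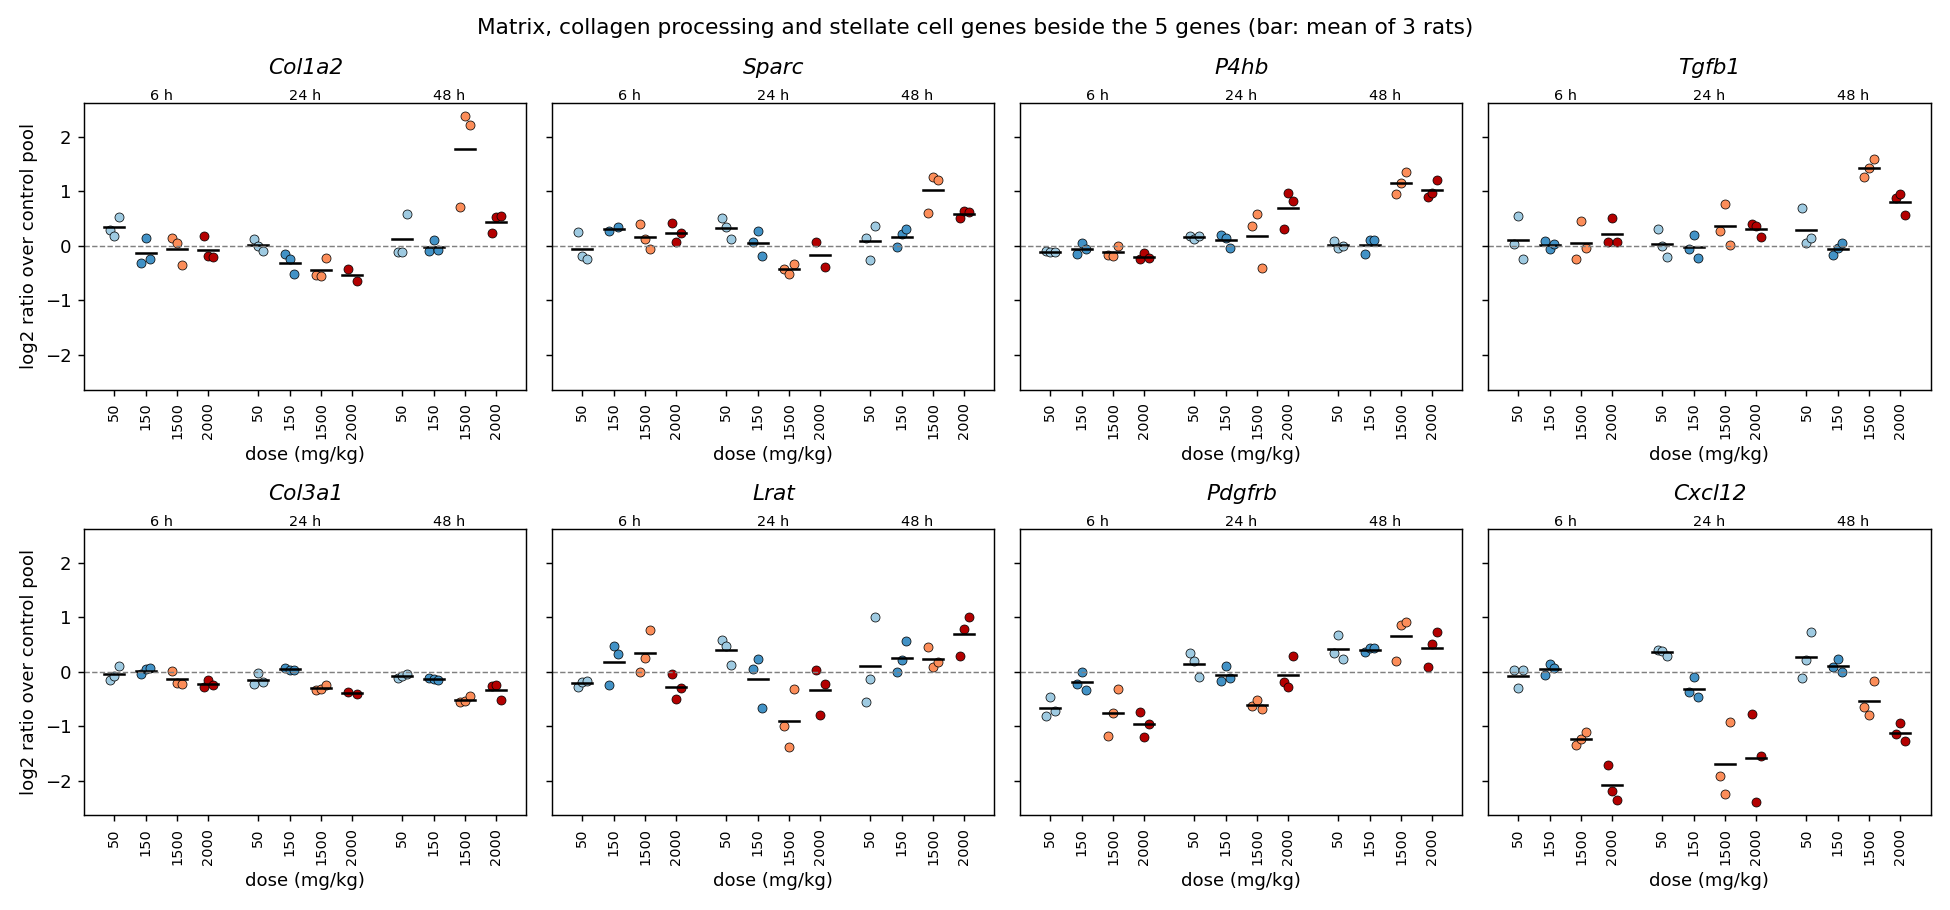
Log2 ratio of each rat over its control pool (vertical axis) by dose in mg/kg (horizontal axis) at 6, 24 and 48 h for 8 genes, with a bar for the mean of the rats of a group. Col1a2 is highest in 1500 mg/kg rats at 48 h, P4hb is high at 48 h after both high doses, and Cxcl12 lies below 0 in the high-dose rats at all 3 times.

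Of 13 myofibroblast and smooth muscle genes 2 were called higher and 1 lower at 48 h, with a median of 0.32. Tagln, the actin-binding transgelin, was 0.77 ± 0.62 at high dose and -0.03 ± 0.07 at low dose (SD, n = 6 each), a difference of 0.80 ± 0.14 (SE, limma adjusted p = 4.12e-05). Actg2, an actin of smooth muscle, differed by 0.63 ± 0.14, with its 2 probes at 0.26 and 0.99. Lmod1, a leiomodin of smooth muscle, differed by -0.63 ± 0.10. The call of Actg2 ended without rat 3057, 3007, 3008 or 3119 (0.53 to 0.57) and with scaled arrays (0.32). That of Lmod1 ended without rat 3059 (-0.58) or 3119 (-0.56) and with scaled arrays (-0.56). Of 23 genes of TGF-beta and PDGF signalling 3 were called higher and 1 lower. Tgfb1, the main fibrogenic ligand of stellate cells, was 0.80 ± 0.20 after 2000 mg/kg and 1.43 ± 0.16 after 1500 mg/kg (SD, n = 3 each), and differed between high and low dose by 0.99 ± 0.15 (SE, limma adjusted p = 4.47e-06). Pdgfa, a growth factor chain, differed by 0.80 ± 0.22, and by 0.49 and uncalled with scaled arrays. Ccn2, connective tissue growth factor, differed by 0.92 ± 0.30, and was uncalled without rat 3007 (0.60) or 3057 (0.80) and with scaled arrays (0.46). At 6 h Ccn2 differed by 1.94 ± 0.32 (SE, limma adjusted p = 4.53e-05). Inhba, an activin subunit, differed by -1.04 ± 0.19.

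Of the 148 tested genes of these 9 lists, 23 (15.5%) were called higher and 4 (2.7%) lower at 48 h, against 8.26% and 4.09% of all features. At 24 h 7 (4.73%) were called higher and 8 (5.41%) lower, against 6.56% and 3.37% of all features. The 8 included 3 stellate markers and 3 myofibroblast genes. At 6 h 2 (1.35%) were called higher and 7 (4.73%) lower, against 4.67% and 3.46% of features. The lists were chosen with earlier results known, and the background holds features without a symbol, so these shares are a description.

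Some markers of other cells moved in the same livers at 48 h, where 8.26% of all features were called higher and 4.09% lower. Of 17 macrophage and monocyte markers 6 were called higher and 0 lower, and their median per rat was 0.14 to 0.25 at 2000 mg/kg and 0 to 0.28 at 1500 mg/kg, against -0.11 to 0.08 at low dose. Gpnmb, a glycoprotein of activated macrophages, differed by 3.60 ± 0.29 (12.2-fold, SE, limma adjusted p = 2.16e-10), Lyz2, lysozyme, by 1.56 ± 0.30 and Marco, a scavenger receptor, by 1.16 ± 0.17. Cd68 (-0.03) and Cd163 (0.10), named after their values were seen, did not pass the test. Of 4 neutrophil markers 2 were called, S100a9 (2.02 ± 0.40) and S100a8 (0.78 ± 0.27). The call of S100a8 ended without rat 3007 (0.61) or 3119 (0.53) and with scaled arrays (0.50). Of 14 proliferation genes 10 were called higher and 0 lower, with a median per rat of 0.99 to 1.90 at 2000 mg/kg and 1.07 to 1.49 at 1500 mg/kg, against -0.09 to -0.01 at low dose. They included Mcm5 (3.50 ± 0.26), of the replicative helicase, the ubiquitin-conjugating enzyme Ube2c (3.48 ± 0.26) and Mki67 (3.38 ± 0.20). None of the 10 endothelial, 5 cholangiocyte or 3 mesothelial markers was called, at medians of 0.22, 0.08 and -0.03. At an unadjusted p below 0.05 the limma fit had 6, 0 and 2 of them. Of 9 lymphocyte markers 0 were called higher and 1 lower, Cd79b of B cells (-0.60 ± 0.14), a call that ended with scaled arrays (-0.36) and without rat 3119, 3151, 3057, 3059 or 3150 (-0.58 to -0.48). Of 6 hepatocyte markers 1 was called higher, Apoa1 (1.31 ± 0.16), and 1 lower, Apoh (-0.72 ± 0.08), at a median of -0.31. The part of leukocytes, dividing cells or other cell types in the ratios of Des, Vim, Pcolce, Mgp and Lgals1 was not tested.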

How the data were processed

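Two-colour Agilent rat oligonucleotide arrays were used, with RNA of 1 treated rat and of a control pool on each. The authors deposited log10 ratios, made with Feature Extraction software per the labels. The software version, its settings and the method of centring are unknown here. Values were capped at 2 in either direction. Array column medians lay between -0.0191 and 0.019. No intensities were used, so signal over background is unknown, and the number of arrays limits the precision.

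The labels put the treated rat in channel 2, whose dye turned each ratio. The 2 arrays of a rat, once turned, correlated between -0.431 and 0.718 over probes, and above 0 in 21 of 36 rats. Ratios were converted to log2 and averaged over both arrays, which were both required, and over probes of 1 symbol. A feature needed values from 2 rats in every group, which left 17299 of 17403. A cell means model of 12 groups was fitted in R 4.3.3 (limma 3.58.1, lmFit and eBayes), and adjusted p-values are Benjamini-Hochberg values over all features. It was run on simulated data with independent normal noise for each rat. The simulation held no shared control pool and no dye effect, so these parts of the design were not tested. The pool counts as 1 control sample per dose and time, so the spread between control rats is left out and pools differ between groups. The rats are separate animals, housed 3 to a cage. No arrays held identical values.

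The members and gene lists were chosen with earlier results of these data known. Genes named are the 5 members, Col1a1, Col1a2, Col3a1, Acta2, Timp1, Tgfb1, Lrat, Pdgfrb and Gfap, up to 3 called genes of each list in each direction with the largest difference at 48 h, and the 3 genes nearest to each member in pattern. Promoters are from RefSeq (GRCr8). Alternatives were centring, scaling to equal spread, single dyes, single probes, other low-dose levels, no fold minimum, a fit of 1 time alone, no filter and leaving out each rat. Leaving out exact zeros was added after seeing the data.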

Additional observations from a re-analysis of the deposited data

Results flagged for a closer look

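Several list genes differed between doses or between times in the limma fit (adjusted p below 0.05 and at least 1.5-fold), with the log2 differences given here. Pools differ between these groups, so a difference between pools is part of each value. Calls of Des, Vim, Pcolce, Mgp and Lgals1 are not listed here, since their choice used these ratios.

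Of the matrix and stellate genes at 48 h, 2000 mg/kg was lower than 1500 mg/kg for Col1a2 (-1.33), Mmp12 (-1.47), Mmp23 (-0.66), Tagln (-0.77), Lmod1 (-0.69), Lgals3 (-1.02) and Tgfb1 (-0.63). The leukocyte markers Lyz2 (-1.70) and S100a9 (-2.34) were lower as well. At 24 h 2000 mg/kg was higher for Marco (1.03) and S100a9 (1.95).

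At the high doses, 24 h was above 6 h for Efemp2 (0.65), P4hb (0.60), Lgals3 (0.93), Pdgfa (0.82), Gpnmb (1.30), Lyz2 (1.47), S100a9 (2.07) and Mcm5 (1.42). It was below 6 h for Lmod1 (-0.90), Ccn2 (-0.95) and Lrat (-0.64).

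At the high doses, 48 h was above 24 h for the matrix genes Col1a2 (1.59), Col5a3 (1.01), Sparc (1.10), Adamts2 (1.54), P4hb (0.65) and Loxl1 (0.78) and for the proteases Mmp12 (1.75), Mmp23 (1.27) and Mmp16 (1.26). The stellate and contractile genes Lrat (1.08), Pdgfrb (0.88), Cxcl12 (0.81), Tagln (0.84) and Actg2 (0.90) were higher, as were Tgfb1 (0.78) and Lgals3 (1.62). Of the other markers Gpnmb (2.36), Lyz2 (0.99), Marco (1.06), Apoa1 (1.12), Mcm5 (1.72), Ube2c (3.63) and Mki67 (3.18) were higher and Cd79b (-0.62) was lower.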

How the results depend on the processing

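No paired analysis was possible because each rat has a number of its own. Of the group means of the 5 genes, 436 of 504 alternative values moved by less than 1 SD between rats. Of the 504, 180 left out 1 of 3 rats, which cannot move a mean by 1 SD, so these values could not fail. Another 60 left out exact zeros, which only Des had. The sign turned in 49 of the 504, all for means at most 0.50 from 0, and 28 of the 49 were single-dye values. Des at 2000 mg/kg and 6 h (-0.22) was 0.67 in Cy5, Des at 1500 mg/kg and 6 h (0.49) was -0.32 in Cy3, and Pcolce at 2000 mg/kg and 24 h (0.10) was -0.36 in Cy5. At 48 h and 2000 mg/kg, Des (1.47) was 1.02 with scaled arrays (equal spread), 2.72 with the treated rat in Cy5 only, 0.22 in Cy3 only and 1.88 with exact zeros left out. Mgp at 2000 mg/kg and 48 h (0.52) was 0.41 scaled, 0.72 in Cy5, 0.32 in Cy3, 0.64 on probe 1695 and 0.40 on probe 20456. At 1500 mg/kg and 48 h (1.04) its probes gave 1.63 and 0.46, and at 1500 mg/kg and 6 h (0.77) 1.03 and 0.50. At 2000 mg/kg and 6 h (0.88) Mgp was 0.68 scaled, 1.26 in Cy5, 0.49 in Cy3, 1.30 on probe 1695 and 0.45 on probe 20456. Of the list genes, 23 were called higher at 48 h, 13 scaled and 48 without a fold minimum, and 4 lower, 17 without it. At 24 h 7 were higher, 4 scaled, 4 against 50 mg/kg alone and 21 without a fold minimum, and 8 lower, 4 scaled and 24 without it. At 6 h 2 were higher, 1 scaled, 11 without a fold minimum and 1 to 5 when 1 rat was left out (5 without rat 3030, 1 without rat 3126, 3082, 3083 or 3032), and 7 lower, 29 without a fold minimum. Without a minimum the criterion itself is looser. For the other changes the cause was not tested. Of 2142 alternative values of named genes 2044 stayed on the same side of the threshold, called or not, 71 lost a call and 27 gained one. The members' calls without each rat and with the other scalings were chosen after seeing the data, and the report gives those that changed.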
